A study of Homo sapiens with 21 samples.

Results

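MM.1S cells, an established human multiple myeloma line from peripheral blood, were compared between 2 hairpin conditions: 3 libraries from cells given a hairpin against ARID2 and 3 libraries labelled Aiolos knockdown, out of 21 mRNA libraries in the series. A gene entered the comparison when it reached 1 TPM in 3 or more of the 21 libraries, which took 12559 of the 17691 listed gene symbols. TPM is a gene's length-corrected share of a library's transcripts, on a fixed total. The comparison shows what sets the 2 hairpin conditions apart from each other, and each difference below is ARID2 knockdown minus labelled Aiolos knockdown on the log2(TPM + 1) scale, with its standard error.

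Cells of both groups were transduced with lentivirus carrying a short hairpin and collected after 72 h, and received no drug. The remaining libraries, 3 a group, came from control knockdown cells, untreated cells, and cells kept in 1 µM of the drug pomalidomide (collected at 24, 48 and 72 h). Neither the hairpin sequences and their number per gene nor the control knockdown's collection time could be read from the labels, so an effect of 1 hairpin on other transcripts cannot be told apart from the effect of its target. The design text calls the 3 replicates biological, without naming separate cultures or days.

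ARID2 is a subunit of PBAF, the form of the SWI/SNF chromatin remodeller that also carries PBRM1, BRD7 and PHF10. Aiolos, encoded by IKZF3, is a zinc finger transcription factor of the Ikaros family and is expressed in B cells and plasma cells. Thalidomide analogues such as pomalidomide bind cereblon (CRBN) and send Ikaros and Aiolos to the proteasome, after which myeloma cells typically lose IRF4 and MYC. The study set both hairpins beside that drug.

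The 2 groups differed across most of the transcriptome. In all, 8282 of 12559 genes (65.9%) passed limma's test at an adjusted p under 0.05, 3798 of them higher in the ARID2 knockdown (30.2% of genes tested) and 4484 lower (35.7%). Most of these differences were small: of the genes called, 334 (2.66% of those tested) were 2-fold or more higher and 500 (3.98%) were 2-fold or more lower. Differences of 4-fold or more numbered 27 higher and 43 lower. Libraries of the 2 groups did not overlap for 8497 genes (67.7%). The median difference of all genes was -0.03, with quartiles at -0.33 and 0.25. Plasma cell transcription factors, p53 targets, S phase genes, amino acid stress genes, respiratory chain genes and antigen presentation genes were mostly higher in the ARID2 knockdown. Mitosis genes, ribosomal protein genes, sterol synthesis genes, lysosomal genes and the surface peptidase MME were mostly lower.

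**Figure D1:**
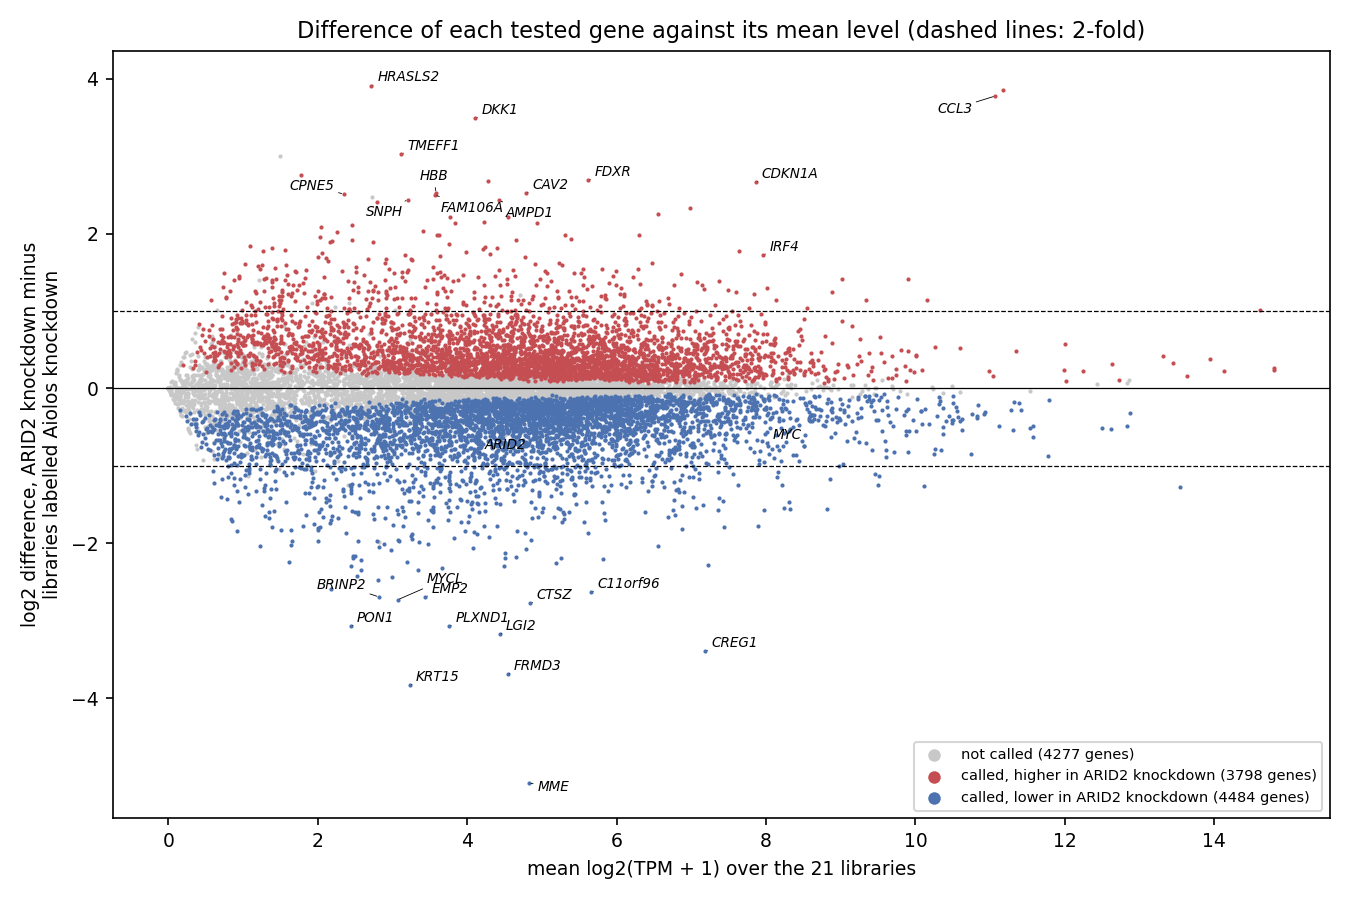
Each point is 1 of 12559 genes. The x axis is its mean log2(TPM + 1) over the 6 libraries compared, although the axis title names 21. The y axis is its log2 difference, ARID2 knockdown minus the libraries labelled Aiolos knockdown. Called genes are coloured (3798 higher in red, 4484 lower in blue), and MME at -5.09 and HRASLS2 at 3.91 lie at the outer ends among the genes labelled.

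Whole-library shares differed between the groups. The 13 mitochondrial mRNAs held 18.2% to 18.6% of listed TPM in the ARID2 knockdown and 14.8% to 16.5% in the libraries labelled Aiolos knockdown, against 16.9% to 17.6% in the control knockdown. Ribosomal protein genes held 9.66% to 9.99%, 12.7% to 13.4% and 9.73% to 9.93% in the same order. Pearson correlation of log2(TPM + 1) across genes, which are not independent, was 0.9947 to 0.9958 within the ARID2 knockdown, 0.9929 to 0.9951 within the other group and 0.9624 to 0.965 between the 2 groups. Because TPM is a share, a gene's value also moves with the rest of its library.

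The ARID2 transcript (chr12:45729665-45908040, GRCh38, plus strand, protein coding) followed its label. Its 3 knockdown libraries read 12.4, 12.2 and 12.1 TPM for ARID2, and those labelled Aiolos knockdown read 23.2, 20.4 and 24.6 TPM. No library of one group reached the other, and the difference was -0.84 ± 0.07 (adjusted p = 1.0e-09, limma). The control knockdown had 25.6 ± 0.322 TPM (SD, n = 3), so the libraries labelled Aiolos knockdown lay close to it.

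IKZF3 (chr17:39757715-39864188, GRCh38, minus strand, protein coding) went against its label. The libraries carrying that label read 127, 121 and 141 TPM for IKZF3, and the ARID2 knockdown read 118, 119 and 122 TPM. All 6 were above the 3 control knockdown libraries, at 83.5, 79.2 and 81.4 TPM, and the groups overlapped. The difference between them, -0.12 ± 0.05 (adjusted p = 0.039, limma), no longer passed under 10 of the 17 alternatives run, among them leaving out replicate 3 of the libraries labelled Aiolos knockdown (-0.05, adjusted p = 0.287). Transcript abundance does not show the protein, which was not measured here. Since the label is not borne out at the transcript, these libraries are called the labelled Aiolos libraries from here on, and every direction below is set against them as labelled.

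Among the other PBAF subunits, PBRM1, the polybromo subunit that reads acetylated histones, was also lower. PBRM1 measured 34.4, 32.6 and 35 TPM in the ARID2 knockdown and 46.8, 44.6 and 52.1 TPM in the labelled Aiolos libraries, with no overlap (-0.48 ± 0.06, adjusted p = 3.6e-07, limma). BRD7 (0.07 ± 0.06, adjusted p = 0.25, limma) and PHF10 (-0.07 ± 0.06, adjusted p = 0.31, limma) did not pass. Of 22 other SWI/SNF subunits tested, 12 were lower, 6 higher and 4 not called, with a median of -0.12. Among all genes tested, 35.7% were lower and 30.2% higher. SMARCD1, a core accessory subunit, stood at 62.8 ± 1.77 TPM against 154 ± 2.98 TPM (SD, n = 3; difference -1.28 ± 0.03). The accessory subunit DPF3 lay at the other end, at 19.7 ± 1.32 TPM against 6.65 ± 0.0959 TPM (1.44 ± 0.09), followed by the ATPase SMARCA2 (0.65 ± 0.04). SS18 was lower by a smaller amount (-0.44 ± 0.04).

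Within the Ikaros family, 2 of 5 members (40%) were called, both lower, beside 65.9% of all genes called. IKZF5 was lower in the ARID2 knockdown (12.1 ± 0.517 against 18 ± 0.538 TPM, difference -0.54 ± 0.06, adjusted p = 4.5e-08, limma). The other called member was IKZF3, whose call was lost under 10 of the 17 alternatives. IKZF1, which encodes Ikaros, did not pass: its libraries overlapped, at 42.2, 40.6 and 43 TPM against 41, 40.3 and 43.5 TPM, a difference of 0.01 ± 0.04 (adjusted p = 0.85, limma). IKZF2 and IKZF4 did not pass. CRBN, the drug's receptor, was modestly lower in the ARID2 knockdown, at 14 ± 1.6 TPM against 17.2 ± 0.673 TPM (-0.29 ± 0.07, adjusted p = 0.0022, limma). The CRBN ligase list had 6 of 10 members lower, 3 higher and 1 not called (median -0.23), beside 35.7% of all genes lower and 30.2% higher. Its scaffold CUL4B (-0.45 ± 0.06), the signalosome subunit COPS8 (-0.40 ± 0.06) and the exchange factor CAND1 (-0.35 ± 0.05) were lower, and the RING subunit RBX1 was higher (0.26 ± 0.04).

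The 24 leading genes were spread over many functions. These are the 12 with the largest differences in each direction among called genes with separated libraries and a mean of at least 5 TPM in the higher group. The largest difference was that of MME (chr3:155024124-155183729, GRCh38, plus strand), which encodes CD10, a membrane peptidase carried by early and germinal centre B cells. The ARID2 knockdown read 3.65, 3.36 and 4.65 TPM for MME, the labelled Aiolos libraries 161, 156 and 178 TPM and the control knockdown 11.3, 10.0 and 10.9 TPM. The 3 groups were fully separated, with the ARID2 knockdown lowest and the labelled Aiolos libraries far above both (-5.09 ± 0.08, adjusted p = 1.2e-20, limma).

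CCL3 (chr17:36088256-36090169, GRCh38, minus strand), a chemokine that myeloma cells secrete and that stimulates osteoclasts, was the most abundant of the leading genes. CCL3 reached 8226, 8066 and 7561 TPM in the ARID2 knockdown against 599, 600.3 and 540.2 TPM in the labelled Aiolos libraries and 4498, 5126 and 5257 TPM in the control knockdown (3.78 ± 0.05, adjusted p = 5.5e-21, limma). In untreated cells CCL3 stood at 910 TPM. Its near-identical copy CCL3L3, passed over in the ranking, differed by 3.86, and reads may have been divided between the copies. DKK1, a secreted Wnt inhibitor also made by myeloma cells, stood at 56.2, 54.4 and 59.9 TPM against 4.5, 4.26 and 3.7 TPM, with the control knockdown between at 19.7 ± 1.26 TPM (3.49 ± 0.12, adjusted p = 1.6e-15, limma). HRASLS2, a phospholipase and acyltransferase, showed another order: the control knockdown was highest at 39.2 ± 2.92 TPM, the ARID2 knockdown had 24.4 ± 0.644 TPM, and the labelled Aiolos libraries had 0.697 ± 0.169 TPM (3.91 ± 0.18).

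The remaining genes with the largest higher values included 2 targets of p53, FDXR and CDKN1A, described below. TMEFF1, a transmembrane protein, differed by 3.03 ± 0.34, with a wide spread between libraries (18.8, 22.2 and 32.4 TPM against 2.62, 0.772 and 3.38 TPM). TMEFF1 shares exons with a readthrough gene, and its difference ran from 2.64 to 3.29 as single libraries were left out. The caveolin CAV2 (2.52 ± 0.06), the calcium-binding copine CPNE5 (2.51 ± 0.10), the mitochondrial anchor SNPH (2.44 ± 0.12), the AMP deaminase AMPD1 (2.43 ± 0.12) and FAM106A (2.5 ± 0.16), a gene with near copies, completed the group together with HBB (2.52 ± 0.16), the beta globin gene. In these last 6 genes the ARID2 knockdown libraries lay above all 3 control knockdown libraries and the labelled Aiolos libraries below them. For TMEFF1 the lowest ARID2 knockdown library and the highest control library both read 18.8 TPM.

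Among the genes with the largest lower values, CREG1, a secreted glycoprotein of the endosome and lysosome, was the most abundant. CREG1 stood at 44.7, 40.7 and 46.7 TPM in the ARID2 knockdown, 472, 461 and 480.1 TPM in the labelled Aiolos libraries and 314, 315 and 316 TPM in the control knockdown (-3.39 ± 0.03, adjusted p = 2.2e-23, limma). CREG1 and EMP2, a tetraspan membrane protein (3.28 ± 0.257 against 26.6 ± 1.06 TPM, control 18.7 ± 0.587 TPM), were the pair for which the control knockdown lay much nearer the labelled Aiolos libraries than the ARID2 knockdown. KRT15, a keratin (1.49 ± 0.191 against 34.5 ± 1.69 TPM, control 0.541 ± 0.198 TPM), FRMD3 (5.48 ± 0.186 against 82.9 ± 6.68 TPM, control 4.0 ± 0.424 TPM), the esterase PON1 (0.881 ± 0.129 against 14.8 ± 0.566 TPM, control 0.651 ± 0.0572 TPM) and BRINP2 (1.79 ± 0.294 against 16.9 ± 0.75 TPM, control 0.954 ± 0.109 TPM) showed the reverse. In these 4 genes the ARID2 knockdown lay near the control knockdown and the labelled Aiolos libraries stood alone. LGI2 (-3.17 ± 0.05), the semaphorin receptor PLXND1 (-3.07 ± 0.08), the cathepsin CTSZ (-2.77 ± 0.08), the MYC relative MYCL (-2.73 ± 0.10) and C11orf96 (-2.62 ± 0.09) had the control knockdown between the groups.

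**Figure D2:**
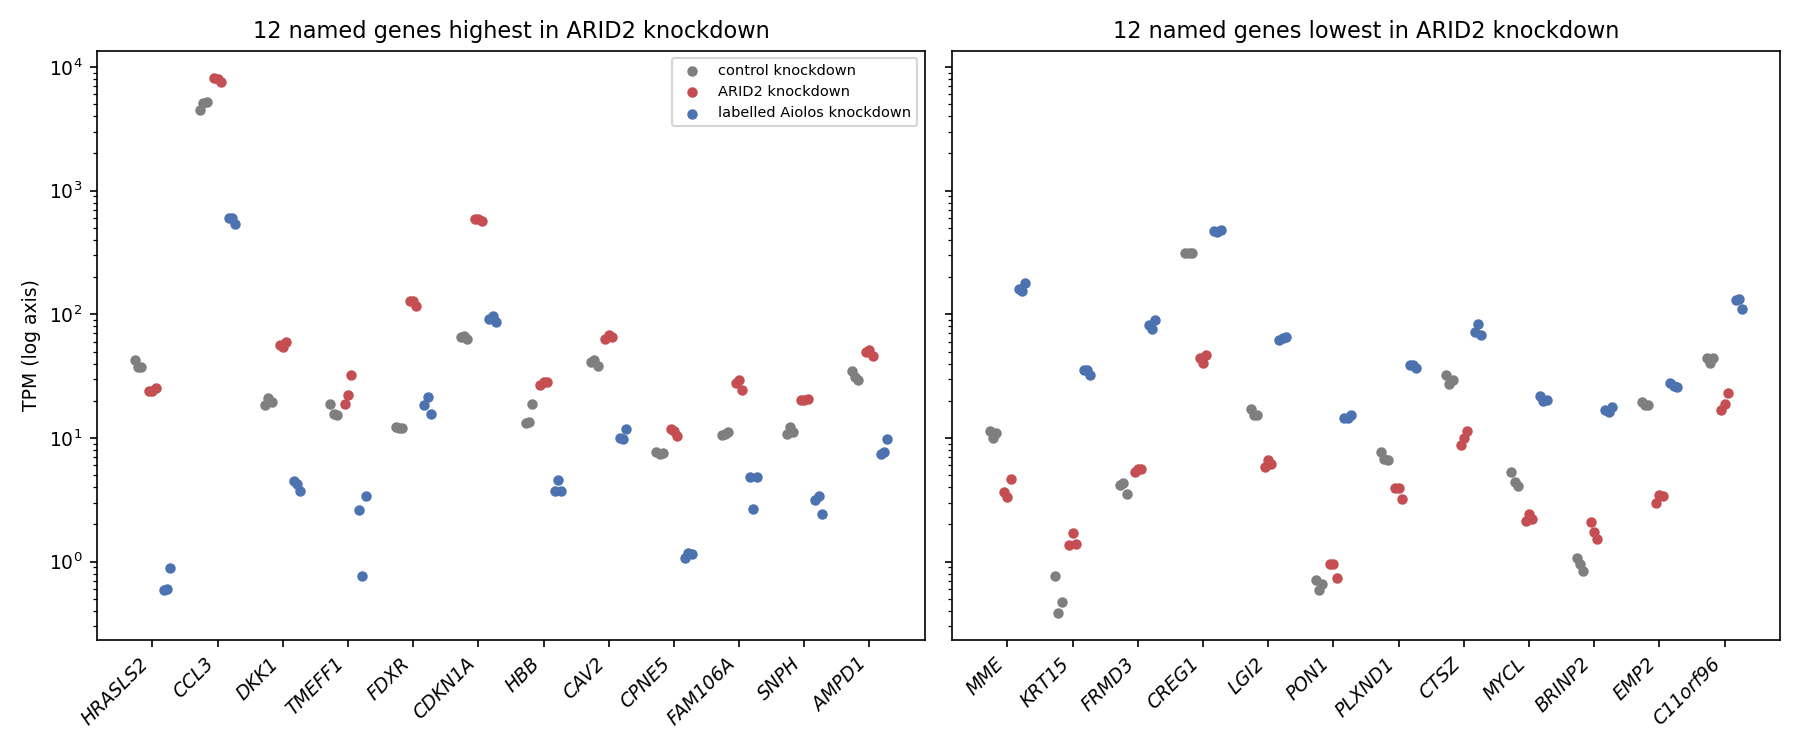
TPM on a log axis for the 12 named genes highest (left) and 12 lowest (right) in the ARID2 knockdown, with 1 point per library for the control knockdown (grey), ARID2 knockdown (red) and labelled Aiolos knockdown (blue). CDKN1A and FDXR stand out by a control level near that of the labelled Aiolos libraries, and CREG1 and EMP2 by a control level well above the ARID2 knockdown.

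Short promoter windows of MME and IRF4 are shown because the hairpins target a chromatin remodeller and a factor whose family binds a known core, TGGGAA. The core lies before RefSeq starts of MME and IRF4, and the windows are written in the direction of the gene, with the core in capitals. In IRF4 the core is on the opposite strand and reads TTCCCA. Both genes were picked after their values were seen. Sequences are from RefSeq on GRCh38.p14.
MME, chr3:155079439-155079468, plus strand: gcaaagccctttTGGGAAtggtgagatggg
MME, chr3:155080193-155080222, plus strand: ggaggcgtgcccTGGGAAggagccgctact
IRF4, chr6:391722-391751, plus strand: taaagttcctctTTCCCAcctcgcactctc
Searching both strands from 250 bases before to 50 after each start, 27.9% of 10165 tested genes with a RefSeq window held it, against 27% of 263 genes called at least 2-fold higher and 29.1% of 388 called at least 2-fold lower. Of the 24 leading genes, 3 of 9 higher and 1 of 9 lower genes with a window held it. A match is a description of letters and not of binding, which was not measured.

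Plasma cell transcription factors were mostly higher in the ARID2 knockdown. Of 15 tested, 9 were higher, 4 lower, MYC among them, and 2 not called, and the list median was 0.82 beside -0.03 for all genes. Without the filter on low values the list median was 0.46. IRF4 (chr6:391739-411447, GRCh38, plus strand), the factor on which myeloma cells depend, stood at 452, 446 and 461 TPM in the ARID2 knockdown and 135, 129 and 146 TPM in the labelled Aiolos libraries. Both groups lay below the control knockdown, at 619, 636 and 639 TPM, and they did not overlap (1.72 ± 0.04, adjusted p = 1.0e-18, limma). Untreated cells, which carried no hairpin, had 469 TPM of IRF4, near the ARID2 knockdown. PRDM1, which encodes the plasma cell repressor BLIMP1, had 223 ± 2.81 TPM against 87.9 ± 3.53 TPM, with the control knockdown between at 162 ± 4.83 TPM (1.33 ± 0.04). XBP1, the driver of secretory expansion, had the same order, at 1695 ± 47.8, 767 ± 8.08 and 1280.1 ± 21 TPM for the ARID2 knockdown, the labelled Aiolos libraries and the control (1.14 ± 0.02). The coactivator POU2AF1 was higher as well (0.82 ± 0.03).

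MYC moved in the opposite direction to IRF4. MYC stood at 205, 199 and 200.3 TPM in the ARID2 knockdown against 335, 333 and 316 TPM in the labelled Aiolos libraries and 368, 367 and 377 TPM in the control knockdown, with no overlap among the 3 groups (-0.70 ± 0.03, adjusted p = 1.0e-13, limma). The ARID2 knockdown therefore held the lower MYC level and the labelled Aiolos libraries the lower IRF4 level. Among 11 B cell stage factors tested, 4 were lower and 3 higher, near the shares of all genes called lower (35.7%) and higher (30.2%). The lower ones included BCL11A (1.41 ± 0.113 against 6.12 ± 0.551 TPM, control 1.51 ± 0.0842 TPM), BACH2 (9.52 ± 0.521 against 19.1 ± 1.2 TPM, control 7.65 ± 0.35 TPM) and TCF4 (22.5 ± 0.384 against 41.1 ± 3.83 TPM, control 20.4 ± 0.183 TPM), which act earlier in the B lineage. In each the ARID2 knockdown lay nearer the control than the labelled Aiolos libraries did. RUNX3 was higher (0.78 ± 0.04).

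**Figure D3:**
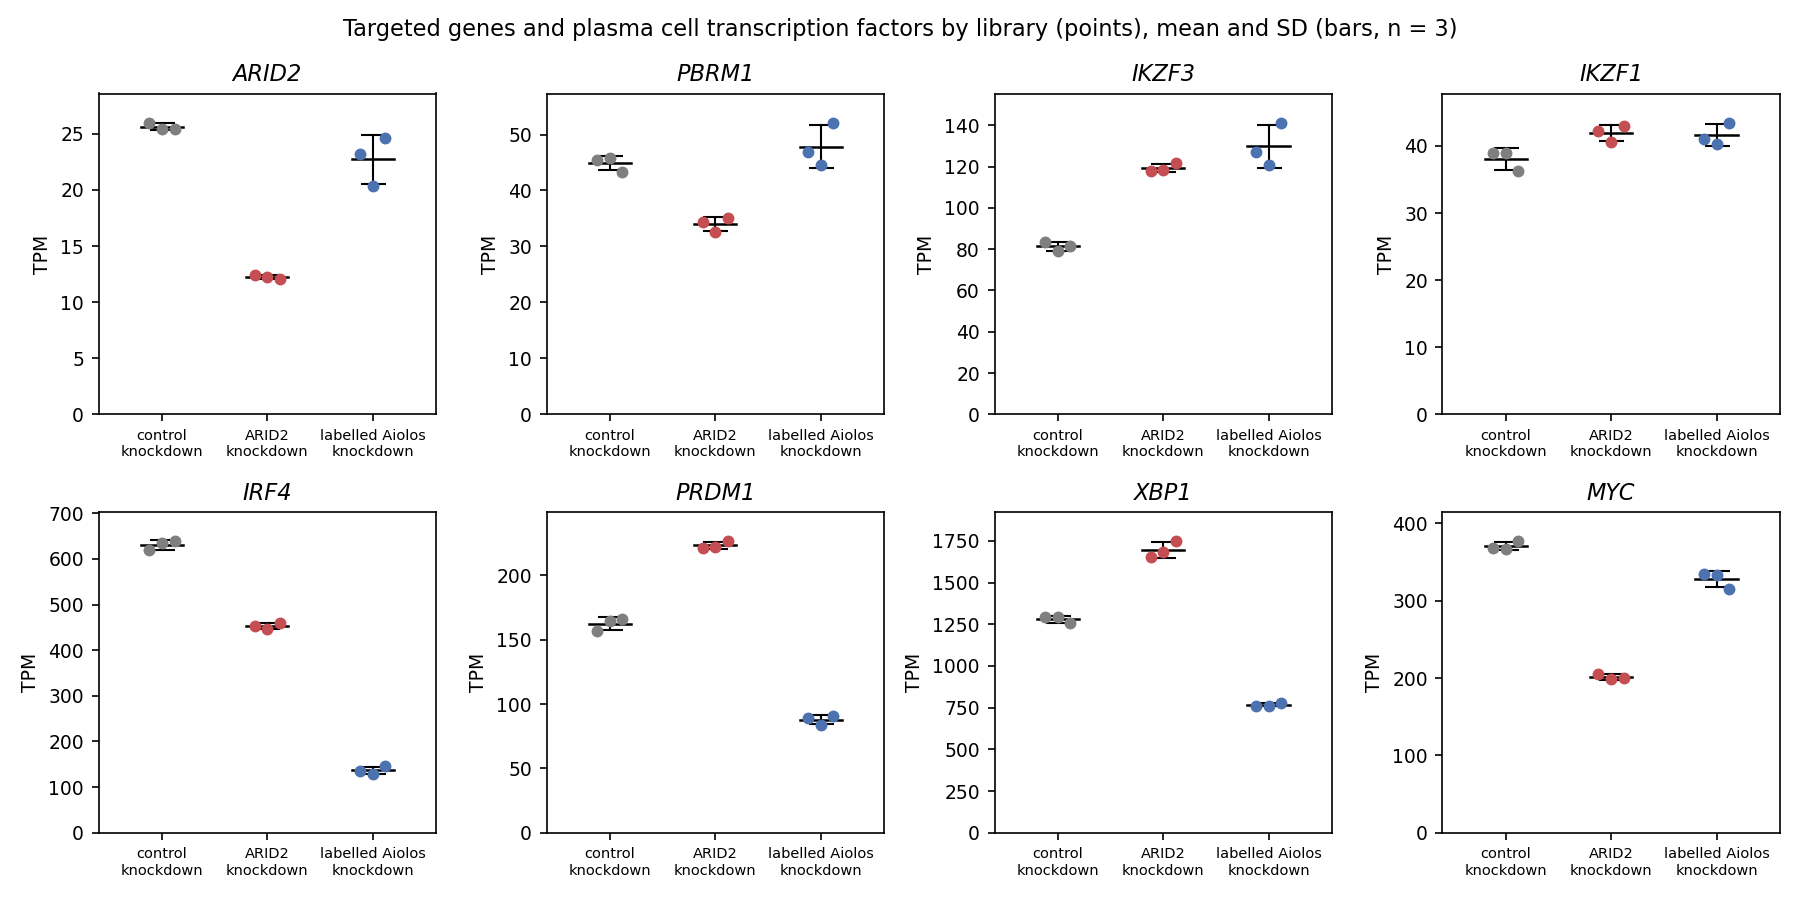
TPM in each library (points), with mean and SD over 3 libraries (bars), for the targeted genes, PBRM1, IKZF1 and the plasma cell regulators IRF4, PRDM1, XBP1 and MYC in the control, ARID2 and labelled Aiolos knockdown. ARID2 is low only in its own knockdown among these 3 groups, IKZF3 is above the control in both, and IRF4 and MYC order the 2 hairpin groups in opposite ways.

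The cell cycle lists split by phase. Of 62 G2/M genes, which build and control the mitotic spindle and the checkpoint, 60 were lower in the ARID2 knockdown, 1 was higher and 1 was not called, beside 35.7% of all genes called lower. The list median was -0.80, and 16 members were at least 2-fold lower. Of 50 S phase genes, which copy DNA and load the replication machinery, 38 were higher, 5 lower and 7 not called (median 0.49). The count of S phase genes lower fell to 2 without ARID2 knockdown replicate 3 and to 3 without replicate 3 of the labelled Aiolos libraries. In bulk RNA, fewer cells in a phase and less RNA per cell cannot be told apart.

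Against the control knockdown, which both comparisons share, the G2/M median stood at -1.30 for the ARID2 knockdown and -0.50 for the labelled Aiolos libraries, and the S phase median was -0.53 and -0.93. Both lists thus sat below the control in both groups, mitosis further in the ARID2 knockdown and replication further in the labelled Aiolos libraries. CCNB2, a mitotic cyclin, stood at 29.8, 30.2 and 33.5 TPM against 97.9, 104 and 107 TPM, the latter near the control at 90.8 ± 3.64 TPM (-1.69 ± 0.06, adjusted p = 3.7e-15, limma). ECT2, needed for cytokinesis (-1.55 ± 0.07), and the spindle bundler PRC1 (-0.84 ± 0.04) also had the labelled Aiolos libraries near the control. The checkpoint gene MAD2L1 was below the control in both groups, at 14.3 ± 0.526 and 38.4 ± 1.34 TPM against 75.9 ± 0.70 TPM (-1.36 ± 0.06).

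PCNA, the sliding clamp of replication and also a p53 target, stood at 722, 729 and 734 TPM in the ARID2 knockdown and 285, 312 and 327 TPM in the labelled Aiolos libraries (1.24 ± 0.04, adjusted p = 1.1e-15, limma), with the control between at 590.3 ± 16.1 TPM. The helicase subunits MCM6 (0.86 ± 0.03) and MCM4 (0.97 ± 0.05) and the thymidylate synthase TYMS (0.61 ± 0.03) were higher but lay below the control in both groups. Of 20 replication histone genes, 9 were higher, 1 lower and 10 not called, so 50% were called beside 65.9% of all genes. Without ARID2 knockdown replicate 1, 5 were higher. The linker histone HIST1H1C led the called ones at 95.3 ± 10.8 against 31.9 ± 1.38 TPM (1.54 ± 0.09). HIST1H2BC, HIST1H4H and HIST2H2BE differed by 1.13, 0.73 and 0.44. Their levels were low, at 4.92, 8.25 and 3.66 TPM against 1.77, 4.61 and 2.43 TPM. Most replication histone transcripts end without a poly(A) tail and have close copies, so their levels in mRNA libraries are uncertain.

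Targets of p53 and CDK inhibitors were among the lists furthest from the median of all genes. In total 15 of 24 were higher, 7 lower and 2 not called (median 0.62), with 6 members 2-fold or more higher and 2 lower by that much. CDKN1A (chr6:36676460-36687339, GRCh38, plus strand), which encodes the CDK inhibitor p21, stood at 587, 595 and 573 TPM in the ARID2 knockdown, 91.3, 96.9 and 86 TPM in the labelled Aiolos libraries and 65.5, 67.1 and 63.3 TPM in the control knockdown (2.67 ± 0.06, adjusted p = 7.3e-18, limma). FDXR, ferredoxin reductase, had 128, 128 and 116 TPM against 18.3, 21.5 and 15.7 TPM and 12.1 ± 0.151 TPM in the control (2.69 ± 0.10, adjusted p = 1.7e-14, limma). For both genes the labelled Aiolos libraries lay a little above the control and the ARID2 knockdown far above both. The repair gene XPC (0.98 ± 0.04) had that order too, while SESN2, which also responds to amino acid stress, was below the control in the labelled Aiolos libraries (107 ± 3.88 against 36.7 ± 2.59 TPM, control 89.7 ± 2.73 TPM). Without the filter on low values the median was 0.39. Set against the control, the list's median stood at 0.98 for the ARID2 knockdown and at 0.55 for the labelled Aiolos libraries.

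Genes of cell death were mixed. Of 17 BCL2 family genes, 10 were lower, 3 higher and 4 not called, beside 35.7% of all genes lower and 30.2% higher. BMF, a death-promoting BH3-only gene, stood at 60.7, 62.9 and 62.5 TPM in the ARID2 knockdown and 187, 186 and 184 TPM in the labelled Aiolos libraries, with the control at 49.1 ± 0.418 TPM (-1.57 ± 0.03, adjusted p = 4.4e-19, limma). The survival gene BCL2L1 (-0.57 ± 0.03) and BCL2L13 (-0.47 ± 0.04) were lower too, whereas PMAIP1, the BH3-only gene NOXA, was higher (1.53 ± 0.10).

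Growth genes went in opposite directions by class. Ribosomal protein genes were lower in the ARID2 knockdown for 73 of 77 members (median -0.37), with 1 higher and 3 not called, and the median was -0.23 under quantile normalization. The median was -0.02 against the control knockdown in the ARID2 knockdown and 0.36 in the labelled Aiolos libraries. RPL11 stood at 1274, 1287 and 1267 TPM against 2292, 2325 and 2296 TPM and 1752 ± 9.47 TPM in the control (-0.85 ± 0.03, adjusted p = 2.8e-16, limma), and RPL4, RPS6 and RPL13A differed by -0.82, -0.85 and -0.87. Ribosomal protein genes have many processed copies, so their levels depend on how reads were assigned. MYC targets, mostly ribosome assembly and nucleotide synthesis genes, were higher for 19 of 31 and lower for 4 (median 0.21), although MYC itself was lower. LDHA (0.61 ± 0.04), the nucleolar methylase FBL (0.61 ± 0.04), the uracil glycosylase UNG (0.74 ± 0.05) and PA2G4 (0.43 ± 0.03) were among the called members. The MYC target medians against the control were -0.18 and -0.44 in the ARID2 knockdown and the labelled Aiolos libraries.

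The amino acid arm of the integrated stress response, driven by ATF4, was higher in the ARID2 knockdown but below the control in both groups. Of 32 members, 25 were higher, 3 lower and 4 not called, with a median of 0.61; against the control the medians were -0.99 for the ARID2 knockdown and -1.25 for the labelled Aiolos libraries. CHAC1, which degrades glutathione, stood at 29.4, 26.6 and 29.1 TPM, 5.25, 5.44 and 5.36 TPM and 78.1, 83 and 89.8 TPM in the ARID2 knockdown, the labelled Aiolos libraries and the control (2.21 ± 0.09, adjusted p = 1.6e-14, limma). Untreated cells, which carried no hairpin, had 5.36 TPM of CHAC1, level with the labelled Aiolos libraries.

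The serine synthesis enzyme PSAT1 (102 ± 2.02 against 36.5 ± 2.25 TPM, control 359 ± 19.4, untreated 89.3 TPM) and the transporters SLC7A5 (62.8 ± 1.42 against 25.6 ± 1.65 TPM, control 217 ± 8.41, untreated 126 TPM) and SLC1A5 (262 ± 4.36 against 131 ± 5.93 TPM, control 627 ± 30.5, untreated 372 TPM) also had their highest level among these 4 groups in the control knockdown. Aminoacyl-tRNA synthetases, which charge tRNAs and are partly ATF4 targets, were higher for 16 of 20 and lower for 1 (median 0.43). Their medians against the control knockdown were -0.51 in the ARID2 knockdown and -0.93 in the labelled Aiolos libraries. MARS, AARS, TARS and WARS differed by 0.72, 0.66, 0.57 and 0.81. In that order they stood at 92.9, 170, 96.6 and 18.9 TPM in the ARID2 knockdown. The labelled Aiolos libraries had 56.1, 107, 64.6 and 10.4 TPM. The control knockdown had 191, 411, 190 and 34.1 TPM, and untreated cells only 96.4, 205, 108 and 20.5 TPM.

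Secretory pathway and unfolded protein response genes were higher for 30 of 49, lower for 11 and not called for 8 (median 0.23). Their medians against the control knockdown were -0.41 in the ARID2 knockdown and -0.68 in the labelled Aiolos libraries. HERPUD1, an ER membrane protein of protein disposal, had 418 ± 10.8 against 189 ± 5.07 TPM (1.14 ± 0.03). The control knockdown had 510 ± 12.4 TPM of HERPUD1, but untreated cells had only 241 TPM. For DERL3 and EDEM1 the control knockdown had 191 and 446 TPM, and untreated cells had 200 and 324 TPM. DERL3 (78.8 ± 3.88 against 209.6 ± 17 TPM, -1.4 ± 0.05) and EDEM1 (-0.74 ± 0.04), also of ER disposal, were lower, so members of 1 branch differed in direction. Cytosolic chaperones showed no common direction: 7 of 23 were higher, 6 lower and 10 not called. Of all genes, 30.2% were called higher and 35.7% lower. HSPH1 (0.65 ± 0.05), HSPB1 (0.93 ± 0.08) and CCT3 (0.31 ± 0.03) were higher and HSF1 was lower (-0.56 ± 0.05). Of 21 NRF2 and antioxidant genes, 8 were higher, 3 lower and 10 not called, so 52.4% were called beside 65.9% of all genes. The cystine transporter SLC7A11 (1.47 ± 0.09), PRDX1 (0.43 ± 0.03) and KEAP1 (0.45 ± 0.04) were higher and NFE2L2, which encodes NRF2, was lower (-0.47 ± 0.05).

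Respiratory chain genes of the nucleus were higher for 70 of 75 members, with 1 lower and 4 not called (median 0.41). Against the control the medians lay on either side of 0, at 0.16 in the ARID2 knockdown and -0.29 in the labelled Aiolos libraries. UQCRC1, a core subunit of complex III, stood at 235, 230.2 and 226 TPM in the ARID2 knockdown, 109.7, 118 and 99.8 TPM in the labelled Aiolos libraries and 169.5 ± 4.0 TPM in the control (1.07 ± 0.04, adjusted p = 3.8e-14, limma), and the hairpin groups did not overlap. NDUFB4 of complex I (0.94 ± 0.03) and the ATP synthase subunit ATP5B (0.53 ± 0.02) were higher as well. Of the 13 mRNAs made from mitochondrial DNA, 10 were higher and 3 were not called (median 0.23). MT-ND4 (0.39 ± 0.04), MT-CYB (0.31 ± 0.03) and MT-CO3 (0.22 ± 0.02) were higher, and MT-CO1 was higher by 0.26 ± 0.03 but changed sign to -0.063 under quantile normalization.

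Sterol and fatty acid synthesis genes, controlled by SREBP factors, were lower for 21 of 28 members, higher for 3 and not called for 4 (median -0.32). Both groups lay below the control, with medians of -0.95 in the ARID2 knockdown and -0.59 in the labelled Aiolos libraries. The desaturase SCD stood at 102, 101 and 106 TPM, 279, 272 and 298 TPM and 805, 818 and 807 TPM in the ARID2 knockdown, the labelled Aiolos libraries and the control, with no overlap (-1.45 ± 0.04, adjusted p = 2.0e-16, limma). Lanosterol synthase LSS (-1.3 ± 0.04), MSMO1 (-1.11 ± 0.06) and the SREBP regulator INSIG1 (-0.71 ± 0.04) were lower as well. Glycolysis and hypoxia genes were higher for 16 of 28 and lower for 8, beside 30.2% and 35.7% of all genes. PDK1, a kinase that inhibits pyruvate dehydrogenase, was higher (79.2 ± 1.07 against 31.1 ± 2.48 TPM, 1.32 ± 0.04). GPI (0.90 ± 0.04) and TPI1 (0.67 ± 0.03) were higher too, while PGAM1 was lower (-0.94 ± 0.03).

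Antigen presentation genes were mostly higher. In all, 16 of 28 were higher, 7 lower and 5 not called (median 0.42). The class II chain HLA-DRA stood at 843, 868 and 815 TPM in the ARID2 knockdown, 304, 326 and 316 TPM in the labelled Aiolos libraries and 367 ± 4.87 TPM in the control (1.41 ± 0.04, adjusted p = 4.1e-17, limma). CD74, the class II invariant chain, had 1563 ± 31.5 against 585 ± 24.3 TPM (1.42 ± 0.04), and the peptide transporter TAP1 was higher (0.97 ± 0.04). The class I chain HLA-B was lower, at 507 ± 9.42 against 831 ± 38.2 TPM (-0.71 ± 0.03). Of the other class II genes, HLA-DRB1, HLA-DPA1 and CIITA, their master regulator, differed by 1.33, 1.16 and 0.68; these 3 were chosen after their values were seen. HLA genes are polymorphic and similar to each other, which makes their assigned levels uncertain.

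Interferon-stimulated genes had no common direction, with 20 of 45 lower, 11 higher and 14 not called (median -0.12). Among all genes, 35.7% were called lower and 30.2% higher. IFIT3 was lower at 4.02 ± 0.335 against 17.5 ± 0.333 TPM (-1.88 ± 0.08), as were IFI6 (-1.23 ± 0.07) and the signal transducer STAT2 (-0.58 ± 0.03), whereas SAMD9L was higher (1.35 ± 0.07). NF-kB targets were higher for 15 of 26 and lower for 9, beside 30.2% and 35.7% of all genes. Their median was 0.35, or 0.14 without the filter on low values, and CCL3 led them. The cytokine receptor chain IL2RG (537 ± 3.97 against 261 ± 4.92 TPM, 1.04 ± 0.03), PLEK (1.49 ± 0.05) and NFKB2 (0.70 ± 0.05) were higher. Immediate early genes were lower for 10 of 21 and higher for 7, beside 35.7% and 30.2% of all genes. KLF6 (-1.19 ± 0.04), the phosphatase DUSP5 (-0.70 ± 0.03) and ZFP36 (-0.71 ± 0.05) were lower and ATF3 was higher (0.92 ± 0.06).

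Surface proteins of myeloma cells, several of them drug targets, were called in both directions: 14 of 30 lower and 12 higher. Over all genes these shares were 35.7% and 30.2%. The list median of -0.04 became -0.19 with a filter of 5 TPM and turned to 0.07 under quantile normalization. ITGB7, an integrin chain and the most abundant gene of the list, stood at 7852, 7675 and 7348 TPM in the ARID2 knockdown and 18894, 19516 and 17138 TPM in the labelled Aiolos libraries (-1.28 ± 0.04, adjusted p = 1.2e-15, limma). The interleukin 6 receptor IL6R was lower (429.6 ± 9.26 against 687 ± 13 TPM, -0.68 ± 0.02). TNFRSF17, which encodes the immunotherapy target BCMA, was higher, at 747, 722 and 785 TPM against 414, 429 and 444 TPM, with both groups below the control at 1088 ± 12.3 TPM (0.81 ± 0.03, adjusted p = 1.3e-14, limma).

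Lysosomal genes were lower for 21 of 33 members, higher for 6 and not called for 6 (median -0.33). Against the control the medians were 0.03 in the ARID2 knockdown and 0.30 in the labelled Aiolos libraries. The proteases CTSZ (8.81, 10.0 and 11.3 TPM against 72, 83.8 and 67.8 TPM, control 29.6 ± 2.53 TPM) and CTSB (106 ± 1.65 against 209 ± 7.79 TPM, control 104 ± 3.18 TPM), the peptidase TPP1 (-0.66 ± 0.03) and the sterol carrier NPC2 (-0.74 ± 0.04) were among those lower. Cytoskeleton and adhesion genes were lower for 23 of 46 and higher for 14, beside 35.7% and 30.2% of all genes. Vinculin VCL (-1.79 ± 0.08), the non-muscle myosin MYH9 (354 ± 12.2 against 709 ± 24.5 TPM) and the calponin CNN2 (-0.90 ± 0.03) were lower, and the actin crosslinker FLNA was higher (51.9 ± 0.564 against 20.3 ± 1.42 TPM, 1.32 ± 0.05).

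Promoter windows of the lysosome and MYC target lists are shown because MYC and TFEB, a regulator of lysosomal genes, both bind an E-box, CACGTG. The windows come from called members with the whole window before a RefSeq start (GRCh38.p14), picked after their values were seen to include both directions in each list. One window is given per gene. Capitals mark the E-box, which reads alike on both strands.
NEU1, chr6:31862930-31862959, minus strand: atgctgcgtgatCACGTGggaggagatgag
CTSA, chr20:45891281-45891310, plus strand: gaggaagactgtCACGTGgcgccggagttc
MCOLN1, chr19:7522571-7522600, plus strand: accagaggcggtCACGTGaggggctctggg
UNG, chr12:109097928-109097957, plus strand: ccaaatagcctcCACGTGttcaaaatagcc
LDHA, chr11:18394366-18394395, plus strand: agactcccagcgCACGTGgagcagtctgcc
ODC1, chr2:10448024-10448053, minus strand: ccgggccccgggCACGTGtgcggcgcgcct
SRM, chr1:11060200-11060229, minus strand: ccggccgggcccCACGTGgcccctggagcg
CTSD, chr11:1763957-1763986, minus strand: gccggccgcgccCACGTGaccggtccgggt
Genes with such a window went both ways in each list. Of the lysosomal ones, NEU1, CTSA, MCOLN1, LAMP1 and CD63 were lower (-0.84, -0.51, -0.46, -0.37 and -0.30), and CTSD and ATP6V0D1 were higher (0.51 and 0.49). Of the MYC targets, UNG, LDHA and ODC1 were higher (0.74, 0.61 and 0.29), and SRM and CDK4 were lower (-0.40 and -0.16). The E-box was in the windows of 12 of 28 MYC targets (42.9%) and 8 of 24 lysosomal genes (33.3%) with a RefSeq window, against 12.7% of 10165 tested genes. It was in 11.4% of genes called at least 2-fold higher and 12.4% of those at least 2-fold lower. The MYC target and lysosome lists hold genes that MYC and TFEB regulate, so their shares describe the lists and not the groups' difference.

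**Figure D4:**
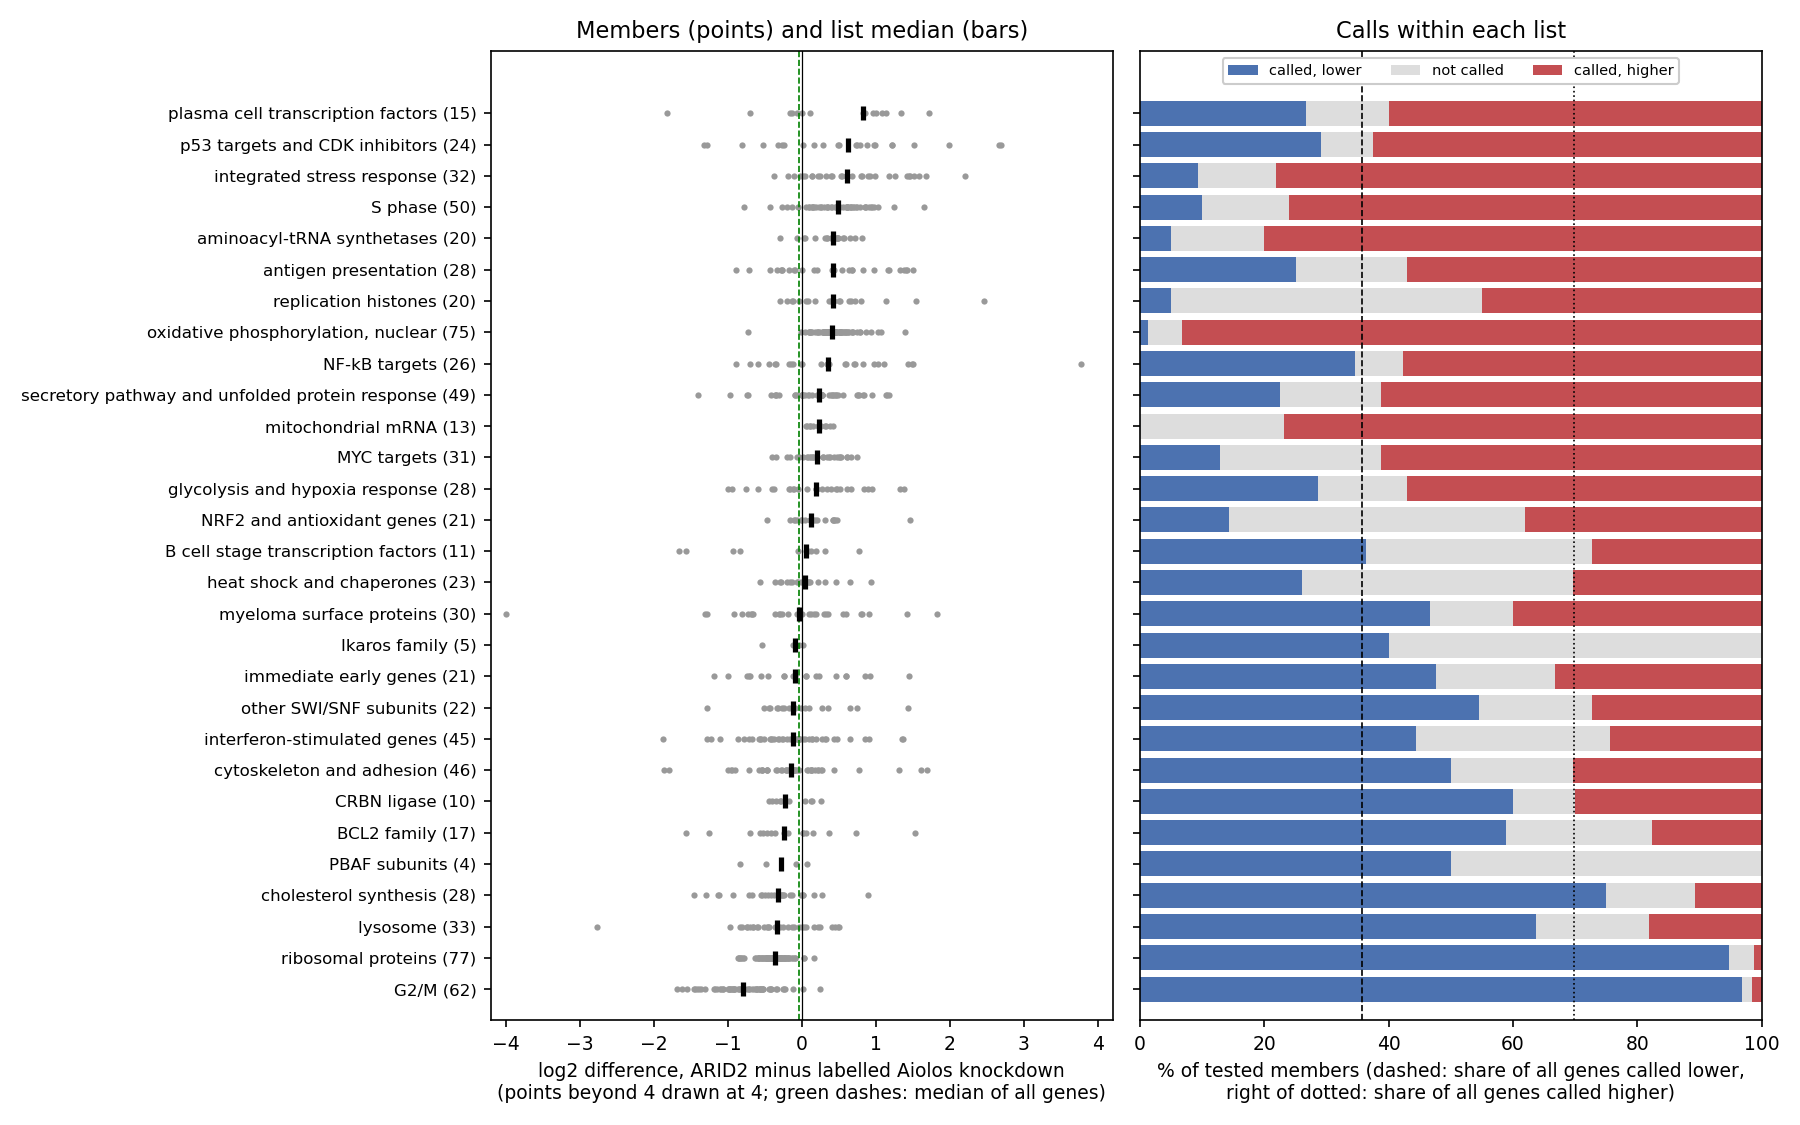
Left, the log2 difference of every tested member of 29 gene lists (points) with the list median (bars) and the median of all genes at -0.03 (green dashes). Right, the share of members called lower, not called and called higher, beside 35.7% and 30.2% of all genes called lower and higher; G2/M and ribosomal protein genes fill almost the whole bar in blue, and nuclear respiratory chain genes in red.

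**Figure D5:**
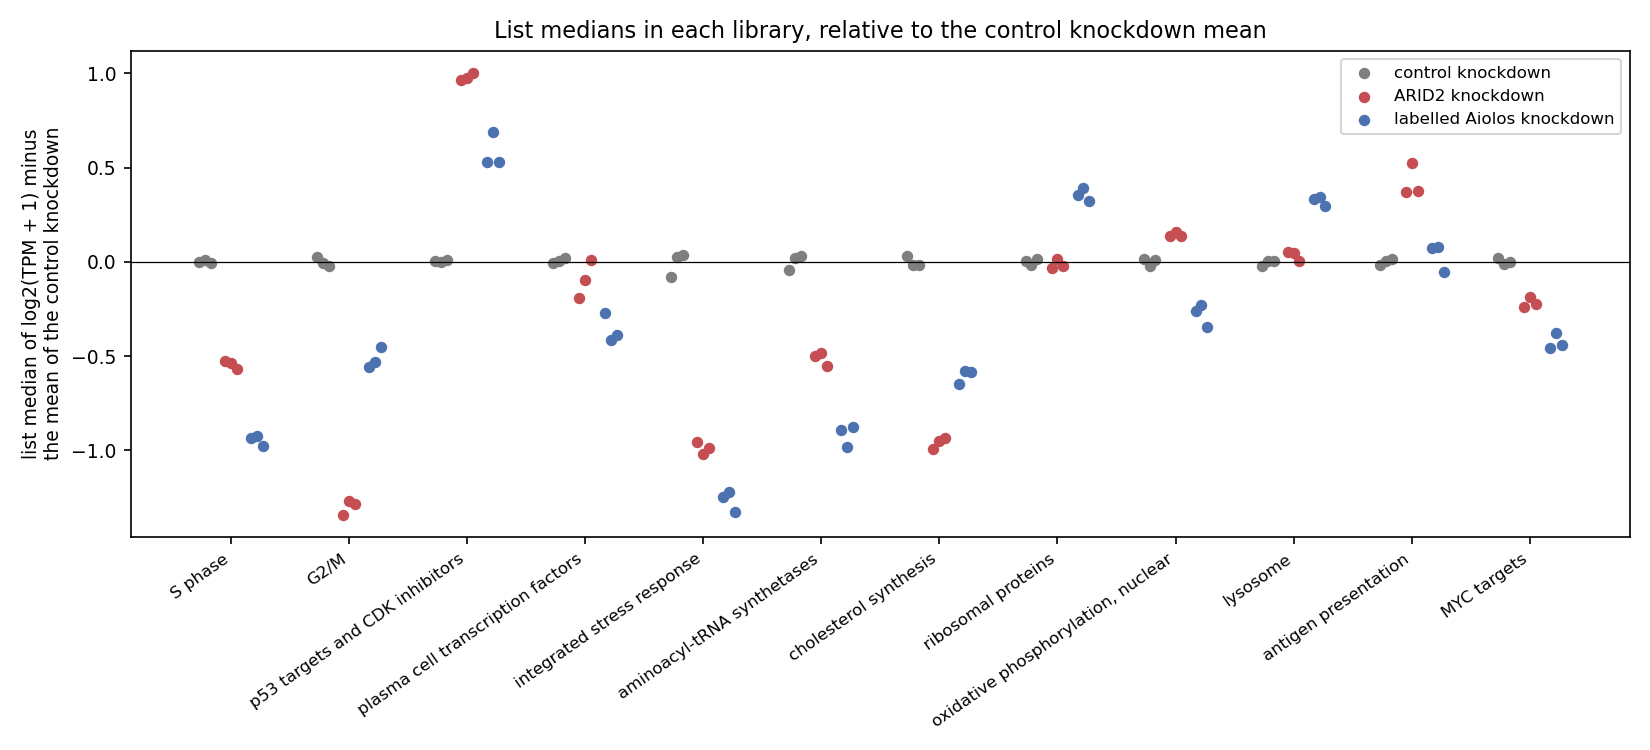
Median log2(TPM + 1) of 12 gene lists in each library, relative to the mean of the 3 control knockdown libraries, which both hairpin groups share as their reference. The 3 libraries of a group lie close together in most lists shown. Plasma cell transcription factors spread more, at -0.19, -0.10 and 0.01 in the ARID2 knockdown and -0.27, -0.42 and -0.39 in the libraries labelled Aiolos knockdown. The G2/M medians of the ARID2 knockdown run from -1.34 to -1.27, and those of the libraries labelled Aiolos knockdown from -0.56 to -0.45.

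Marker lists described the cells in both groups. Most plasma cell markers were abundant, with SDC1, which encodes the plasma cell antigen CD138, between 660 and 757 TPM in the 6 libraries. CD38 was far less abundant, at 7.43 to 7.97 TPM in the ARID2 knockdown and 11.4 to 13.5 TPM in the labelled Aiolos libraries. The B cell markers MS4A1 (CD20), CD22 and CD24 were at or near 0, but CD79B was at 31.6 to 36.8 and 35.1 to 45.65 TPM in the same order. The plasma and B cell list had 8 of 12 tested members higher in the ARID2 knockdown and 2 lower (1 without ARID2 knockdown replicate 3 or labelled Aiolos replicate 2), with summed levels of 45186 to 47096 TPM against 24077 to 25102 TPM, most of it IGLL5. IGLL5, an immunoglobulin lambda-like gene that overlaps lambda constant gene segments and may take their reads, stood at 36856, 35629 and 34536 TPM against 17712, 18332 and 16963 TPM (1.01 ± 0.03, adjusted p = 3.3e-16, limma).

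Markers of other cell types were mostly under 1 TPM. In all 6 libraries 9 of 12 T and NK cell markers, 9 of 12 myeloid markers, 11 of 13 epithelial and stromal markers and 5 of 7 erythroid markers stayed below that level. CD3D, CD3G, CD8B, GZMB, KLRD1, S100A8, MPO, FCN1, HBA2 and AHSP were at 0 in all 6. All listed members, tested or not, summed to 1.74 to 2.0 TPM in the ARID2 knockdown against 2.82 to 3.41 TPM for T and NK cells. The sums were 15.7 to 17 against 22 to 26.6 TPM for myeloid cells and 4.87 to 5.8 against 3.91 to 6.84 TPM for epithelial and stromal cells. ITGAM, the myeloid integrin CD11b, was higher, with 2.42, 2.25 and 1.83 TPM in the ARID2 knockdown against 0.0779, 0.316 and 0.156 TPM (1.42 ± 0.13, adjusted p = 9.0e-09, limma), while the lysosomal marker CD68 (-0.66 ± 0.11) and CD14 (-0.85 ± 0.17) were lower. CD2 (-0.54 ± 0.15) and CD3E (-0.67 ± 0.20) were lower at about 1 TPM or less. PECAM1 was higher (0.51 ± 0.11), at 3.67 against 2.27 TPM. It was far below its control knockdown level of 17.9 ± 1.6 TPM, but untreated cells had only 4.88 TPM. Replicate 3 of the labelled Aiolos libraries held traces not seen in the other two, with HBA1 at 4.22 TPM and COL3A1 at 0.486 TPM, while HBB, at 3.74, 4.56 and 3.74 TPM in the labelled Aiolos libraries and 26.7, 28.1 and 28.5 TPM in the ARID2 knockdown, was no higher in replicate 3.

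The share of genes called rose with level. When genes were ordered by mean log2(TPM + 1) and divided into 3 equal sets, 51.1% of the lowest, 69.1% of the middle and 77.6% of the highest set were called, with median standard errors of 0.123, 0.0691 and 0.0483. Sequencing depth is unknown from TPM, so a gene not called at a low level was not detectably different at this precision.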

How the data were processed

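The files hold mRNA-seq of MM.1S cells from TruSeq RNA v2 libraries; per the labels' protocols the sequencer was a NovaSeq. The authors deposited TPM for each gene symbol and library; the genome build is hg38 per the submitters' processing notes, while its aligner, quantifier and annotation were not given in the sources used here. Depth cannot be read from TPM, so no count model was used. All columns of the table were used.

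TPM values were put on the log2(TPM + 1) scale, genes reaching 1 TPM in fewer than 3 of the 21 libraries were left out, and 1 limma model (version 3.58.1, R 4.3.3, empirical Bayes with a trend, 14 residual degrees of freedom) was fitted with the 7 groups of 3 libraries. Genes were called at a Benjamini-Hochberg adjusted p under 0.05 over 12559 genes. A fold change on this scale understates the change of low genes. The 3 libraries of a group are taken as replicates. The p-values measure only the spread between such replicates, pooled over the 7 groups and moderated across genes. With only the 6 libraries compared in the fit, 7796 genes were called. The script was tested on simulated data.

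The named genes were 9 regulators, the 12 largest differences in each direction (separated libraries, mean of 5 TPM or more in the higher group, near-identical families and readthrough names passed over) and up to 4 called members of each of 34 lists with the smallest p. Some named genes are not reported here. The lists and genes were chosen with earlier results of these data known. Alternatives changed the pseudocount, the filter, the scaling, the libraries in the fit, the replicate block, the trend and single replicates. Gene positions are from GENCODE on GRCh38. RefSeq promoter windows (GRCh38.p14) matched 10165 tested genes, 9754 of them by symbol.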

Additional observations from a re-analysis of the deposited data

How the results depend on the processing

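The number of genes called ran from 7508 (filter of 5 TPM) to 8510 (no filter on low values) against 8282. Counts of differences of 2-fold or more depended on the pseudocount: a pseudocount of 0.1 TPM gave 548 higher and 790 lower and one of 0.5 TPM gave 426 and 628, against 334 and 500, because a larger pseudocount shrinks differences of low genes. Leaving out single replicates gave 7763 to 7963 called, 3504 to 3724 higher, 4209 to 4405 lower, and 326 to 348 and 495 to 519 of 2-fold or more. The share of calls that were higher was 45.9%, and 49.0%, 51.1% and 49.1% under median-of-ratios scaling, quantile normalization and rescaling without mitochondrial, ribosomal protein and immunoglobulin genes. Of the named genes, MT-CO1 changed sign under quantile normalization (-0.063, adjusted p = 0.236, limma), and the cause was not tested. IKZF3 lost its call under 10 alternatives, with adjusted p from 0.0544 to 0.287; no other named gene lost its call where tested. CD14, CD3E, ITGAM, CD2 and HIST1H2BC did not pass the filter of 5 TPM, and the genes left out by the rescaling were not tested under it. The median of the B cell stage factors, 0.06, was -0.05, -0.05 and -0.03 without ARID2 knockdown replicate 1, labelled Aiolos replicate 1 or labelled Aiolos replicate 2, and that of the immediate early genes, -0.09, was 0.02 without the filter and -0.24 with the filter of 5 TPM. The replicate numbers did not pair the samples: same-numbered libraries had correlations of deviations of 0.0045, -0.036 and 0.076, and only replicate 3 correlated best with its own number. With the replicate block 8225 genes were called, 3759 higher and 4466 lower, and 8164 of them were among the 8282. Depth is unknown, and low genes had the larger standard errors.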

Other observations

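Members of the p53 list outside the named genes, picked here after their values were seen, did not all move with CDKN1A. PHLDA3, an inhibitor of AKT signalling, had 155 ± 3.13 TPM in the ARID2 knockdown, 38.6 ± 4.05 TPM in the labelled Aiolos libraries and 12.7 ± 0.693 TPM in the control knockdown (SD, n = 3). DDB2, a DNA damage sensor, had 99.5 ± 4.41, 42.2 ± 1.73 and 28.7 ± 0.248 TPM in the same order. MDM2, the ligase that degrades p53, differed by 0.87 ± 0.05 on the log2(TPM + 1) scale, while RRM2B, a ribonucleotide reductase subunit, differed by -1.28 ± 0.09. CDKN1C, the CDK inhibitor p57, was lower in the ARID2 knockdown (4.90 ± 0.315 against 13.7 ± 1.07 TPM), with the control knockdown at 5.17 ± 0.204 TPM. Both directions were therefore present among genes of 1 list.

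Lysosomal genes were mostly lower in the ARID2 knockdown, but TFEB, which encodes a transcriptional regulator of lysosomal genes, was higher there (8.55 ± 1.16 against 5.97 ± 0.700 TPM, difference 0.45 ± 0.09), level with the control knockdown at 8.99 ± 0.224 TPM. The cathepsin CTSS, counted with the antigen presentation genes, was lower at 22.8 ± 0.719 against 43.0 ± 2.89 TPM. Both genes were picked after their values were seen.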
